A study of Mus musculus with 6 samples.

Results

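The 8 genes described here encode amino acid transporters and were chosen by symbol: Slc7a5, Slc3a2, Slc1a5, Slc7a1, Slc7a6, Slc38a1, Slc38a2 and Slc38a9. They are 8 of the 14608 genes in the deposited tables, and the rule that picks them is their symbol alone. The RNA came from regulatory T (Treg) cells, CD4 T cells that are defined by the factor Foxp3 and hold immune responses in check. They were taken from mouse spleen, enriched for CD4 on magnetic columns and then sorted by flow cytometry as positive for CD4 and for the fluorescent protein YFP. The 6 libraries came from 2 wild-type mice (WT), 2 mice heterozygous for a Cdc42 knockout (Cdc42+/-) and 2 homozygous for it (Cdc42-/-). Cdc42 is a small GTPase that controls actin and cell shape. The driver of the deletion, the origin of the YFP and the strain, age and sex of the mice are not given in the sources used here.

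Amino acids cross the plasma membrane through carriers that differ in substrate and in what they exchange. Slc7a5 (LAT1) brings in leucine and other large neutral amino acids, and it reaches the cell surface only as a pair with the heavy chain Slc3a2 (CD98hc). Slc7a6 is another light chain of Slc3a2 and handles cationic and neutral amino acids. Slc7a1 (CAT1) carries arginine and lysine and needs no heavy chain. Slc1a5 (ASCT2) exchanges small neutral amino acids including glutamine, and Slc38a1 and Slc38a2 (SNAT1 and SNAT2) take up neutral amino acids together with sodium. Slc38a9 sits on the lysosome, where it reports arginine to mTORC1, the kinase complex that ties growth to amino acid supply. Activated T cells take up more amino acids, and Treg cells need mTORC1 activity to suppress.

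Positions are those of the RefSeq annotation of GRCm38.p6 (mm10), and every library's value was taken over the counted exon length of the gene. Slc7a5 (gene ID 20539) lies at chr8:121881146-121907686 on the minus strand and was counted over 3513 nt. Slc3a2 (17254) lies at chr19:8706882-8723369, minus strand. Slc1a5 (20514) lies at chr7:16781334-16798274, plus strand. These 3 genes encode the leucine and glutamine exchangers and the heavy chain. Slc7a1 (11987) lies at chr5:148327410-148399904, minus strand. Slc7a6 (330836) lies on the chromosome of Slc7a5, at chr8:106168219-106198714 on the plus strand. Slc38a9 (268706) lies at chr13:112656189-112738752, plus strand. The sodium-coupled carriers are neighbours: Slc38a1 (105727) at chr15:96571418-96643438 and Slc38a2 (67760) at chr15:96687392-96699728, both on the minus strand with 43953 bases between them. No exon base of 7 of these genes is shared with another annotated gene. Slc38a9 shares 182 exon bases (1.09%) with Gm47827 on the opposite strand, and whether the counting used strand is not given in the sources used here.

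The 250 bases before an annotated transcript start were read from RefSeq (GRCm38.p6) for 5 of the 8 genes. For Slc3a2, Slc7a6 and Slc38a9 the windows lie inside the gene bounds given above, so these are starts of transcripts other than the outermost. The first Slc7a1 window, which is shown, and the Slc38a2 window lie directly before the gene. Slc7a5, Slc1a5 and Slc38a1 are named only. Shown here are 3 transporters whose level was higher in both Cdc42-/- libraries than in either WT library, and Slc43a1, a further transporter that passed the test against WT and holds a match. The windows of Slc7a10 and Slc38a6, which passed that test too, held none of the motifs and are not shown. Capitals mark a motif found by a search on both strands. The windows are chr19:8713898-8714147 (minus strand) for Slc3a2, chr5:148399905-148400154 (minus strand) for Slc7a1, chr15:96699729-96699978 (minus strand) for Slc38a2 and chr2:84840073-84840322 (plus strand) for Slc43a1.
Slc3a2: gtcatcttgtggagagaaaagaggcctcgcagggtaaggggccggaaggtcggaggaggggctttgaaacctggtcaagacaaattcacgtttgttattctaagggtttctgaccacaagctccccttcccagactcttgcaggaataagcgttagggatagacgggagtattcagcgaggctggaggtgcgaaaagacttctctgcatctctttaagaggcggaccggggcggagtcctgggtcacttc
Slc7a1: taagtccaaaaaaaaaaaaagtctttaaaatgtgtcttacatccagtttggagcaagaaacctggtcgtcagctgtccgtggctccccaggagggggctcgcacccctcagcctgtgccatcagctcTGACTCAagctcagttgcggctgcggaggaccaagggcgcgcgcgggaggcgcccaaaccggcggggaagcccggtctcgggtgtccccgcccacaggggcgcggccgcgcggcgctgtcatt
Slc38a2: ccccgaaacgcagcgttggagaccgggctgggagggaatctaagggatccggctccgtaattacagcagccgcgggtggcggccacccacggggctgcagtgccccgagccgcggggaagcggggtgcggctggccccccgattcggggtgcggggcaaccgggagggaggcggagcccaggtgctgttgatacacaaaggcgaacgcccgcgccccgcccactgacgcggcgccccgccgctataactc
Slc43a1: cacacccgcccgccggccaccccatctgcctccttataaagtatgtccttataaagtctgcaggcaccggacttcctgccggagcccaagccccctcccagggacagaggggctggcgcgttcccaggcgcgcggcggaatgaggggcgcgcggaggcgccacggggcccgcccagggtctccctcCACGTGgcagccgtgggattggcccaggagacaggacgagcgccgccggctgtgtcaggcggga
Searched were TGATGNAA, the composite element bound by C/EBP and ATF factors in amino acid response genes, CACGTG, the E-box bound by Myc and by Tfeb, and TGACTCA, the AP-1 element. They occur in 3.45%, 6.02% and 4.46% of 32851 upstream windows of the same length. The Slc7a1 window held the AP-1 letters 123 to 117 bases before the start, and the Slc43a1 window held the E-box letters 64 to 59 bases before it. The other 6 windows of the 5 transporters, which include the Slc3a2 and Slc38a2 windows shown, held none of the 3 motifs. These are matches of letters and were not tested as binding sites.

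The libraries held between 8556576 and 17796100 reads in genes, and each of the 8 transporters had between 441 and 5260 reads per library, which leaves a counting error of 1.38% to 4.76%. Cdc42 itself stood at 166 and 161 RPKM (reads scaled to gene length and library size) in the WT mice, 164 and 156 in the Cdc42+/- mice and 122 and 173 in the Cdc42-/- mice, so the genotype is known from the labels alone. All 8 Treg marker genes were detected in every library, with sums of 1727 to 1820.4 RPKM in WT, 1660.0 to 1771 in Cdc42+/- and 1136 to 1417 in Cdc42-/-. Replicate 2 of Cdc42-/- stood apart: 10 of 10 myeloid markers were detected and summed to 1416 RPKM there, against 79.6 in the other Cdc42-/- library, 49.6 and 98.5 in WT (Fcgr3 at 0 in replicate 1) and 74.6 and 83.3 in Cdc42+/-. Foxp3 was 58.4 RPKM there against 103 to 131. Results are therefore also given without that library, and its part in them was otherwise not tested. Markers of cycling cells summed to 34.2 and 34.8 RPKM in the WT mice, 119 and 104 in the Cdc42+/- mice and 451 and 644 in the Cdc42-/- mice, with none of the 6 at 0, and their part in the results was not tested. Plasma cell markers (3) summed to 11.1 and 13.1 RPKM in the WT mice, 90.7 and 70.6 in the Cdc42+/- mice and 3.02 and 127 in the Cdc42-/- mice. Erythroid markers (4 found of 7) summed to at most 1.34 in WT and Cdc42+/- and to 4.45 and 24.8 in Cdc42-/-. Dendritic markers (4 of 5) summed to 6.86 in replicate 2 of Cdc42-/- and to 0.406 to 1.11 elsewhere. B cell (5), CD8 T cell (2) and NK cell (2 of 3) markers ranged from 10.1 to 18.9, 6.72 to 10.6 and 1.25 to 2.62 over the libraries. The part of these cell types in the results was not tested. The Y-linked gene Ddx3y was 37.7 and 42.4 RPKM in the WT mice, 0.126 and 0 in the Cdc42+/- mice and 0.0974 and 27.5 in the Cdc42-/- mice, while Xist, the RNA of the silenced X chromosome, was 0.199 and 1.13, 99.3 and 93.3, and 87.4 and 21.2 in the same order. Replicate 2 of Cdc42-/- thus held RNA of both genes, whose origin was not tested. Genotype and sex-linked expression cannot be told apart in Cdc42+/- against WT, nor in Cdc42-/- against WT when replicate 2 of Cdc42-/- is left out. With bulk RNA, fewer cells of a type and less RNA per cell cannot be told apart either.

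In WT Treg cells the glutamine exchanger Slc1a5 had the highest level of the 8, at 101 RPKM ± 1.89 (SD, n = 2), above 96.5% of the 14608 genes in the tables. Slc38a2 followed at 44.5 ± 3.37, Slc38a1 at 25.0 ± 0.797, Slc3a2 at 22.9 ± 1.91, Slc7a6 at 16.6 ± 0.787, Slc7a5 at 15.0 ± 0.834, Slc7a1 at 11.6 ± 0.0861 and Slc38a9 at 7.36 ± 0.716 RPKM. No neighbours in this order overlapped between libraries. The Cdc42+/- cells had the same order, with Slc7a5 (12.9 ± 2.40) and Slc7a1 (12.5 ± 0.213) overlapping. In Cdc42-/- cells the order was Slc1a5 (79.6 ± 1.93), Slc38a2 (55.6 ± 0.559), Slc3a2 (31.0 ± 1.67), Slc7a5 (27.4 ± 6.06), Slc38a1 (26.4 ± 0.457), Slc7a1 (16.8 ± 1.61), Slc7a6 (16.7 ± 2.52) and Slc38a9 (5.99 ± 0.804). There Slc7a5 overlapped both Slc3a2 and Slc38a1, and Slc7a1 overlapped Slc7a6. Slc1a5 made up 41.8% and 41.1% of the summed RPKM of the 8 transporters in the WT mice, 41.4% and 43.4% in the Cdc42+/- mice and 31.4% and 30.02% in the Cdc42-/- mice. Their sum differed little, at 245 and 243 RPKM in the WT mice, 245 and 247 in the Cdc42+/- mice and 258 and 261 in the Cdc42-/- mice.

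**Figure D1:**
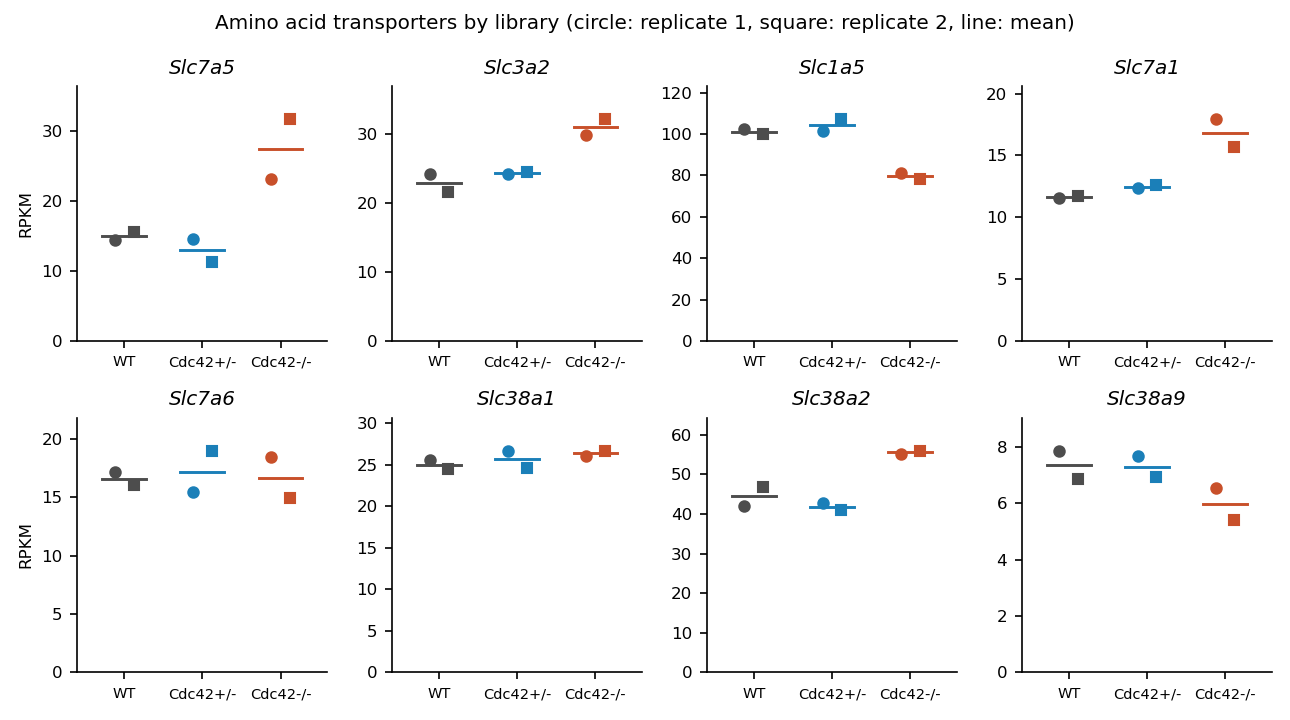
RPKM of the 8 transporters (vertical axis, from 0) in each library by genotype, with circles for replicate 1, squares for replicate 2 and lines for the mean of 2. Slc7a5, Slc3a2, Slc7a1 and Slc38a2 sit higher and Slc1a5 and Slc38a9 sit lower in both Cdc42-/- libraries than in the 4 other libraries, while Slc7a6 overlaps between all genotypes.

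The first comparison, Cdc42+/- against WT, addresses loss of 1 Cdc42 allele. None of the 8 transporters passed an adjusted p of 0.05 in limma, and 0 had an unadjusted p under 0.05. Of all 12233 genes tested, 0% passed and 4.32% had an unadjusted p under 0.05. With limma's voom on the recovered reads 0 of the 8 passed, against 0.00817% of all genes. The differences on the log2(RPKM + 1) scale ran from -0.21 for Slc7a5 (SE 0.20) to 0.10 for Slc7a1 (SE 0.13), with a median of 0.04 beside 0.03 over all genes tested. Slc7a1, higher in Cdc42+/-, was the 1 gene of the 8 whose libraries did not overlap. That held for 43.2% of all genes tested, 26.2% higher and 17.0% lower. The 95% intervals of the 8 differences were widest for Slc7a5, from -0.69 to 0.27.

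The second comparison, Cdc42-/- against WT, addresses loss of both alleles. None of the 8 passed an adjusted p of 0.05 in limma, where 11.4% of all genes tested did. An unadjusted p under 0.05 was found for 5 of the 8 (Slc7a5, Slc3a2, Slc1a5, Slc7a1 and Slc38a2) and for 29.3% of all genes. WT and Cdc42-/- libraries did not overlap for 7 of the 8, as for 56.0% of all genes tested. They were higher in Cdc42-/- for 5 of the 8 and 28.9% of all genes, and lower for 2 of the 8 and 27.1% of all genes. The median difference of the 8 was 0.19, beside 0.01 over all genes. Without replicate 2 of Cdc42-/-, with the lone sample assumed to vary like the other groups, 2 of the 8 passed (Slc1a5 and Slc7a1), as did 18.5% of all genes (9.89% higher and 8.61% lower). With voom on the recovered reads 2 passed (Slc7a1 and Slc7a5), as did 10.9% of all genes.

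The third comparison set Cdc42-/- against Cdc42+/-, and 1 of the 8 transporters passed in limma: Slc7a5 rose. Of all genes tested, 8.22% passed, 4.68% higher and 3.54% lower. With voom 1 of the 8 passed, again Slc7a5, as did 9.64% of all genes. An unadjusted p under 0.05 was found for 5 of the 8 and for 27.1% of all genes, and libraries did not overlap for 6 of the 8 and for 59.0% of all genes. They were higher in Cdc42-/- for 4 of the 8 and 28.6% of all genes, and lower for 2 of the 8 and 30.4% of all genes. The median difference of the 8 was 0.19, beside -0.01 over all genes. Without replicate 2 of Cdc42-/-, 3 of the 8 passed (Slc1a5, Slc38a2 and Slc7a5), as did 14.9% of all genes (7.28% higher and 7.60% lower). That fit also borrows the spread of the lone Cdc42-/- library from the other genotypes, so it cannot check the Slc7a5 call. The comparisons share libraries, so the values of a gene in them are not independent.

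**Figure D2:**
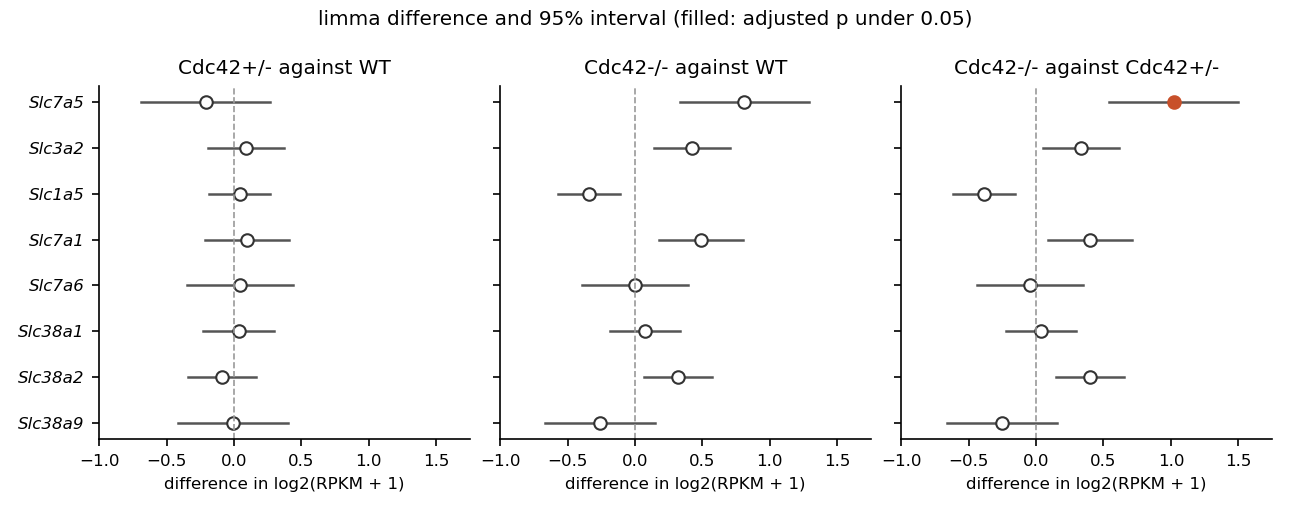
Difference in log2(RPKM + 1) of each transporter (horizontal axis) in the 3 comparisons, with limma's 95% interval as a line and filled points for an adjusted p under 0.05. The only filled point is Slc7a5 in Cdc42-/- against Cdc42+/-, at 1.02.

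Among the partners of the Slc3a2 heavy chain, the leucine carrier Slc7a5 had 14.4 and 15.6 RPKM in the WT mice, 14.6 and 11.2 in the Cdc42+/- mice and 23.1 and 31.7 in the Cdc42-/- mice. Both Cdc42-/- libraries were above all 4 others, and they also lay farther apart than the replicates of the other genotypes. Against Cdc42+/-, the mean was 2.12-fold higher, with a log2 difference of 1.02 (SE 0.20, 95% interval 0.54 to 1.499, limma adjusted p 0.0330). This call was lost in 7 of 13 alternatives, with limma adjusted p-values between 0.00271 and 0.245. Leaving out replicate 2 of Cdc42-/- gave a smaller log2 difference, of 0.80. That fit holds 1 Cdc42-/- library and borrows its spread from the other genotypes, so it cannot check the call. Leaving out any 1 of the WT or Cdc42+/- libraries ended the call. Against WT the mean was 1.82-fold higher, with a log2 difference of 0.81 (SE 0.20, 95% interval 0.33 to 1.29) and a limma adjusted p of 0.0505. In the authors' deposited table this comparison has a log2 fold change of 0.82 and an adjusted p of 0.0253, while Cdc42+/- against WT has -0.24 and 0.605. Slc7a5 is the 1 transporter of the 8 under 0.05 in that table for Cdc42-/- against WT, where 8.66% of all its genes are. For Cdc42+/- against WT 0 of the 8 are, and 2.28% of all its genes.

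The heavy chain Slc3a2 had 24.3 and 21.6 RPKM in the WT mice, 24.2 and 24.5 in the Cdc42+/- mice and 29.8 and 32.2 in the Cdc42-/- mice. Its Cdc42-/- libraries lay above the others, with log2 differences of 0.42 against WT (SE 0.11, limma adjusted p 0.0672) and 0.33 against Cdc42+/- (SE 0.11, limma adjusted p 0.131). The other main light chain, Slc7a6, had 17.1 and 16.03 RPKM in the WT mice, 15.4 and 19.0 in the Cdc42+/- mice and 18.5 and 14.9 in the Cdc42-/- mice. Its genotypes overlapped, and the 95% interval of its difference between Cdc42-/- and WT ran from -0.39 to 0.39.

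The remaining light chains of Slc3a2 were low. Slc7a7, a carrier of cationic and neutral amino acids, stood between 0.462 and 2.29 RPKM, Slc7a8 (LAT2) between 0.265 and 2.01, and Slc7a11, the cystine importer, between 0.0392 and 0.430. Slc7a10 (Asc-1), which exchanges small neutral amino acids such as serine and alanine, had 2.996 and 2.10 RPKM in the WT mice and 5.45 and 3.43 in the Cdc42+/- mice. In Cdc42-/- it had 0.0464 and 0.168 RPKM, from 1 and 3 reads. Slc7a10 was therefore almost without reads in both Cdc42-/- libraries. It fell by 1.67 on the log2(RPKM + 1) scale against WT (SE 0.28, limma adjusted p 0.0175) and by 2.27 against Cdc42+/- (SE 0.28, limma adjusted p 0.0117). Relative to the reads of all genes, the share of its summed reads was 26.4 times higher in WT than in Cdc42-/-, with a 95% exact counting interval of 10.1 to 98.3 that covers counting error only. Of its exon bases 17.9% are shared with Lrp3 on the opposite strand, which had at most 0.790 RPKM in any library. With voom on the recovered reads the limma adjusted p of Slc7a10 was 0.0803 against WT and 0.0571 against Cdc42+/-.

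Ratios within a library set these chains side by side. Slc7a5 over Slc3a2 was 0.594 and 0.723 in the WT mice, 0.603 and 0.457 in the Cdc42+/- mice and 0.774 and 0.983 in the Cdc42-/- mice. The summed light chains over Slc3a2 were 1.48 and 1.65 in the WT mice, 1.51 and 1.44 in the Cdc42+/- mice and 1.46 and 1.60 in the Cdc42-/- mice, so this ratio overlapped between genotypes. The share of light-chain RPKM from Slc7a5 was 40.2% and 43.7% in the WT mice, 39.8% and 31.7% in the Cdc42+/- mice and 53.2% and 61.5% in the Cdc42-/- mice. That share was thus above 50% only in the Cdc42-/- libraries, where Slc7a5 exceeded Slc7a6 by ratios of 1.25 and 2.12. The ratios are descriptions and were not tested.

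**Figure D3:**
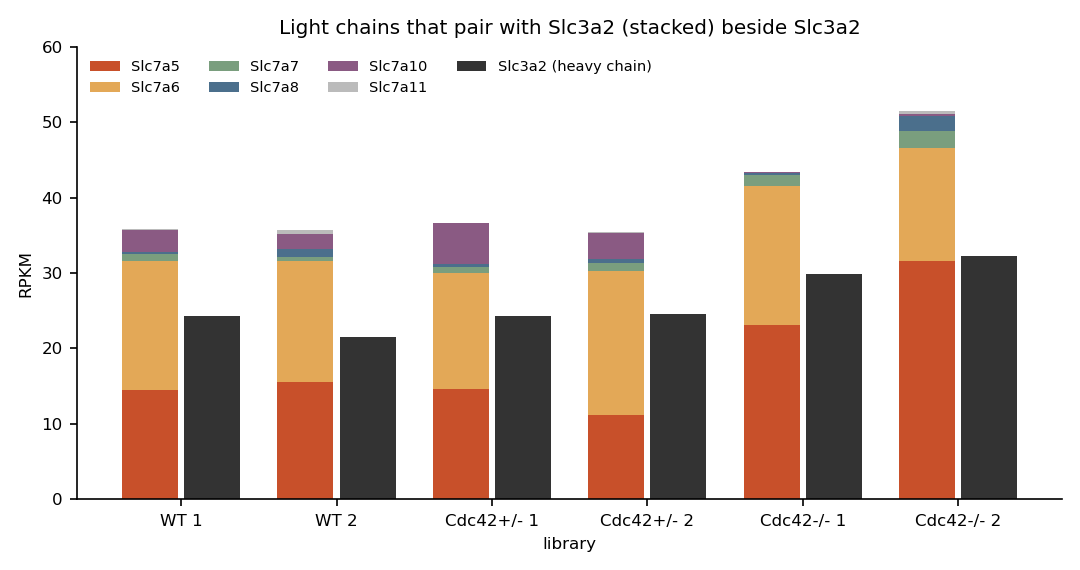
Stacked RPKM of the light chains that pair with Slc3a2 (coloured) beside Slc3a2 (black) in each of the 6 libraries. The coloured bars reach 35.4 to 36.7 RPKM in WT and Cdc42+/- and 43.4 and 51.4 in Cdc42-/-, where Slc7a5 is the widest band and Slc7a10 is barely visible.

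The carrier of arginine and lysine, Slc7a1, had 11.6 and 11.7 RPKM in the WT mice, 12.3 and 12.6 in the Cdc42+/- mice and 17.9 and 15.7 in the Cdc42-/- mice. Its Cdc42-/- libraries were above all others, with log2 differences of 0.49 against WT (SE 0.13, 95% interval 0.18 to 0.80, limma adjusted p 0.0603) and 0.40 against Cdc42+/- (SE 0.13, limma adjusted p 0.115). The lysosomal arginine reporter Slc38a9 had 7.87 and 6.85 RPKM in the WT mice, 7.68 and 6.94 in the Cdc42+/- mice and 6.55 and 5.42 in the Cdc42-/- mice. It was lowest in the Cdc42-/- libraries, with log2 differences of -0.26 against WT (SE 0.17, limma adjusted p 0.344) and -0.25 against Cdc42+/- (SE 0.17, limma adjusted p 0.371). Without replicate 2 of Cdc42-/- these differences shrank to -0.144 and -0.136.

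Slc1a5, the glutamine exchanger, had 103 and 99.9 RPKM in the WT mice, 101 and 107 in the Cdc42+/- mice and 81.0 and 78.3 in the Cdc42-/- mice. It was lower in both Cdc42-/- libraries, with log2 differences of -0.34 against WT (SE 0.09, 95% interval -0.57 to -0.11, limma adjusted p 0.0695) and -0.38 against Cdc42+/- (SE 0.09, limma adjusted p 0.0618). The sodium-coupled Slc38a2 had 42.1 and 46.9 RPKM in the WT mice, 42.7 and 41.0 in the Cdc42+/- mice and 55.2 and 55.9 in the Cdc42-/- mice. It was higher in both Cdc42-/- libraries, with log2 differences of 0.32 against WT (SE 0.10, limma adjusted p 0.106) and 0.40 against Cdc42+/- (SE 0.10, limma adjusted p 0.0695). Its neighbour Slc38a1 had 25.6 and 24.5 RPKM in the WT mice, 26.7 and 24.6 in the Cdc42+/- mice and 26.0 and 26.7 in the Cdc42-/- mice. For Slc38a1 the 95% interval of the difference between Cdc42-/- and WT ran from -0.19 to 0.33. The ratio of Slc38a2 to Slc1a5 was 0.411 and 0.470 in the WT mice, 0.421 and 0.383 in the Cdc42+/- mice and 0.681 and 0.715 in the Cdc42-/- mice.

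Beyond these 8, a list of 49 other amino acid transporters of the plasma membrane and lysosome had 36 genes in the tables, of which 19 reached the level for testing. Most were low: 20 had a mean under 1 RPKM, and 7 had a mean of at least 5, among them the taurine transporter Slc6a6 at 24.2 to 33.7 RPKM and the neutral amino acid carrier Slc43a2 (LAT4) at 13.1 to 17.8. The 8 transporters held 67.2% to 69.1% of the RPKM of all the listed transporters in each library. Against WT, 1 of the 19 rose and 2 fell in Cdc42-/-, where 6.86% of all genes tested rose and 4.57% fell. The median of the 19 was 0.16, beside 0.01 over all genes, and it was -0.01 without replicate 2 of Cdc42-/-.

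Slc43a1 (LAT3), a carrier of large neutral amino acids that needs no heavy chain, had 1.79 and 2.15 RPKM in the WT mice, 2.53 and 2.33 in the Cdc42+/- mice and 6.08 and 4.46 in the Cdc42-/- mice. It rose against WT by a log2 difference of 1.07 (SE 0.22, limma adjusted p 0.0313), and its difference against Cdc42+/- was 0.86 (limma adjusted p 0.0656). Slc38a6, a relative of Slc38a1, had 5.50 and 6.63 RPKM in the WT mice, 4.62 and 4.97 in the Cdc42+/- mice and 2.72 and 2.55 in the Cdc42-/- mice. It fell by 0.95 on the log2 scale against WT (SE 0.18, limma adjusted p 0.0240), and its difference against Cdc42+/- was -0.67 (limma adjusted p 0.0738). Slc7a10, described above, was the other gene that fell against WT, and it was the 1 gene of the 19 that passed against Cdc42+/-, where 8.22% of all genes passed. In that comparison 3 of the 19 passed without replicate 2 of Cdc42-/- (Slc43a1 and Slc6a6 higher, Slc7a10 lower), beside 14.9% of all genes, and 1 with voom (Slc43a1), beside 9.64%. In the authors' deposited table, the adjusted p in Cdc42-/- against WT was 0.184 for Slc43a1, 0.208 for Slc38a6 and 0.00232 for Slc7a10. Without replicate 2 of Cdc42-/-, the spread comes from the other genotypes alone, so a call kept in that fit is no check of it. Of the 13 alternatives, 7 ended the call of Slc43a1 against WT, 6 that of Slc38a6 and 7 that of Slc7a10.

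Genes that use or sense amino acids were then counted in lists of their own. The lists were drawn up with earlier results of these data known, and in Cdc42+/- against WT no gene of any of the 7 lists passed in limma or with voom. There 1 gene, Myc, had an unadjusted p under 0.05, as did 4.32% of all genes tested. Myc, a driver of transporter expression in activated T cells, had 47.7 and 51.4 RPKM in the WT mice, 35.9 and 35.7 in the Cdc42+/- mice and 52.6 and 46.1 in the Cdc42-/- mice. It was lowest in both Cdc42+/- libraries, with a log2 difference of -0.46 against WT (SE 0.11, limma adjusted p 0.597). The authors' deposited table gives Myc a log2 fold change of -0.50 there, with an adjusted p of 7.86e-05.

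The cytosolic aminoacyl-tRNA synthetases, which load amino acids onto tRNA, had 20 genes tested. Against WT, 7 rose and 0 fell in Cdc42-/-, where 6.86% of all genes rose, with a median of 0.33 beside 0.01 over all genes. Against Cdc42+/- 3 rose and 0 fell, with a median of 0.39 beside -0.01, where 4.68% of all genes rose. Wars, the tryptophan enzyme, had 21.6 and 20.0 RPKM in the WT mice, 21.1 and 21.6 in the Cdc42+/- mice and 51.3 and 39.7 in the Cdc42-/- mice (log2 difference against WT 1.08, SE 0.15, limma adjusted p 0.00852). Gars, the glycine enzyme, had 40.0 and 38.5 RPKM in the WT mice, 37.3 and 37.8 in the Cdc42+/- mice and 60.7 and 76.7 in the Cdc42-/- mice (0.78, SE 0.13, limma adjusted p 0.0175). Aars and Hars rose by 0.56 and 0.58 against WT in limma, and 6 and 7 of the 13 alternatives ended these calls. Vars, the valine enzyme, rose by 0.67 against Cdc42+/- (SE 0.12, limma adjusted p 0.0248). Other annotated genes share 15.1% of the exon bases of Aars and 7.97% of those of Hars. With that library of Cdc42-/- that stood apart (replicate 2) left out, 7 synthetases rose against WT and 4 against Cdc42+/-, where 9.89% and 7.28% of all genes rose.

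The amino acid response list holds targets of the stress factor Atf4 and enzymes of serine and asparagine synthesis, with 23 genes tested. Against WT 3 rose and 0 fell in Cdc42-/-, with a median of 0.53, and the same 3 rose against Cdc42+/-, with a median of 0.58. Of all genes 6.86% and 4.68% rose. Without replicate 2 of Cdc42-/- the medians were 0.35 and 0.28. Phgdh, the first enzyme of serine synthesis, had 56.4 and 53.4 RPKM in the WT mice, 50.7 and 54.5 in the Cdc42+/- mice and 91.4 and 109 in the Cdc42-/- mice (0.85 against WT, SE 0.12, limma adjusted p 0.01004). Psat1, the next enzyme of that pathway, had 20.2 and 15.8 RPKM in the WT mice, 24.7 and 22.6 in the Cdc42+/- mice and 39.9 and 60.8 in the Cdc42-/- mice (1.41, SE 0.22, limma adjusted p 0.0135). Gpt2, a mitochondrial enzyme that makes alanine, had 0.402 and 0.974 RPKM in the WT mice, 0.471 and 0.781 in the Cdc42+/- mice and 3.44 and 4.48 in the Cdc42-/- mice (1.57, SE 0.29, limma adjusted p 0.0223). Against Cdc42+/-, 7 of 13 alternatives ended the call of Psat1, 6 that of Gpt2 and 5 that of Phgdh. Against WT these numbers were 2, 6 and 2. In this list 5 genes rose against WT and 4 against Cdc42+/- when replicate 2 of Cdc42-/- was left out, beside 9.89% and 7.28% of all genes.

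The list for lysosomal sensing by mTORC1 had 37 genes tested, of which 0 rose and 3 fell in Cdc42-/- against WT and 0 rose and 2 fell against Cdc42+/-. Of all genes 6.86% rose and 4.57% fell against WT, and 4.68% rose and 3.54% fell against Cdc42+/-. The medians of the list were -0.08 and -0.10, and -0.06 against Cdc42+/- and 0.01 against WT without replicate 2 of Cdc42-/-. The genes that fell against both were the sestrins Sesn1 and Sesn3. Sestrins act through GATOR2 to hold mTORC1 back, with Sesn1 a leucine sensor. The sestrin Sesn2, also in the list, passed in neither comparison. Its log2 differences were -0.08 against WT (limma adjusted p 0.845) and -0.23 against Cdc42+/- (limma adjusted p 0.579). Sesn1 had 51.7 and 49.4 RPKM in the WT mice, 50.8 and 56.4 in the Cdc42+/- mice and 18.4 and 10.6 in the Cdc42-/- mice, and fell by 1.78 on the log2 scale against WT (SE 0.24, limma adjusted p 0.00821). Sesn3 had 59.3 and 51.3 RPKM in the WT mice, 58.7 and 58.1 in the Cdc42+/- mice and 34.4 and 21.3 in the Cdc42-/- mice, and fell by 1.00 (SE 0.22, limma adjusted p 0.0384). Rragd, a Rag GTPase that docks mTORC1 at the lysosome, had 8.71 and 7.87 RPKM in the WT mice, 6.997 and 6.51 in the Cdc42+/- mice and 4.89 and 3.86 in the Cdc42-/- mice, and fell by 0.79 against WT (SE 0.17, limma adjusted p 0.0373). This call of Rragd was lost in 7 of 13 alternatives. Leaving out replicate 2 of Cdc42-/- gave 1 gene that rose and 4 that fell against WT, beside 9.89% and 8.61% of all genes.

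**Figure D4:**
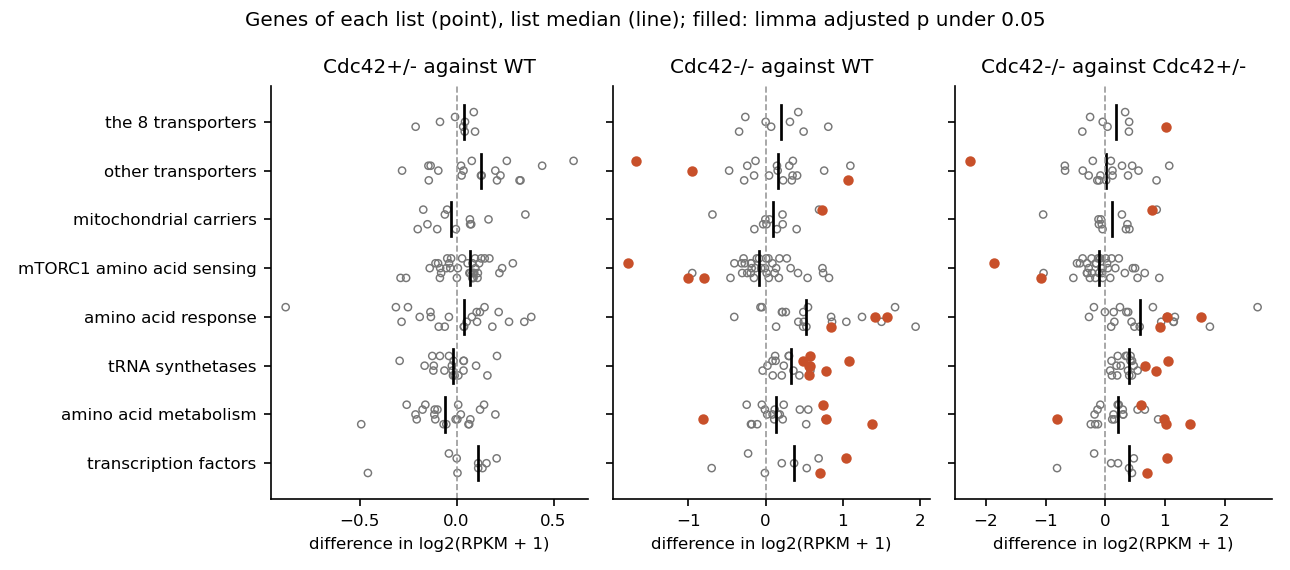
Difference in log2(RPKM + 1) (horizontal axis) of each tested gene in the 8 transporters and 7 related lists, by comparison, with vertical bars for list medians and filled points for a limma adjusted p under 0.05. No point is filled in Cdc42+/- against WT, and in Cdc42-/- against WT the synthetases show 7 filled points on the right and mTORC1 sensing shows 3 on the left.

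Of 22 genes of amino acid metabolism, 3 rose and 1 fell in Cdc42-/- against WT (median 0.14), and 4 rose and 1 fell against Cdc42+/- (median 0.22). Of all genes 6.86% rose and 4.57% fell against WT, and 4.68% rose and 3.54% fell against Cdc42+/-. Without replicate 2 of Cdc42-/- the medians of the list were 0.09 and 0.10. Ahcy, which clears S-adenosylhomocysteine, had 8.23 and 8.69 RPKM in the WT mice, 8.51 and 7.74 in the Cdc42+/- mice and 21.3 and 25.8 in the Cdc42-/- mice, and rose by 1.37 against WT (SE 0.15, limma adjusted p 0.00420). The aspartate aminotransferase Got2 and the serine enzyme Shmt1 rose by 0.75 and 0.78 in limma, and Bckdhb, a subunit of the branched-chain keto acid dehydrogenase, fell by 0.81. Other annotated genes share 8.997% of the exon bases of Got2 and 4.74% of those of Shmt1. The Shmt1 call against WT was lost in 9 of 13 alternatives and that of Bckdhb in 7. Prodh, which starts proline breakdown, rose against Cdc42+/- by 1.02 (SE 0.21, limma adjusted p 0.0415), a call lost in 8 alternatives. Of 12 mitochondrial amino acid carriers 1 rose and 0 fell against each genotype, with medians of 0.10 and 0.12. That count is near the background, since 6.86% and 4.68% of all genes rose. That gene was Slc25a38, a glycine carrier, at 13.6 and 12.1 RPKM in the WT mice, 12.9 and 11.8 in the Cdc42+/- mice and 21.7 and 22.2 in the Cdc42-/- mice (0.73 against WT, SE 0.13, limma adjusted p 0.0178). Of 9 transcription factors tied to nutrient uptake 2 rose and 0 fell against each genotype, with medians of 0.37 and 0.40, beside the same shares of all genes. The median against WT was 0.24 without replicate 2 of Cdc42-/-. Irf4 had 15.5 and 14.2 RPKM in the WT mice, 16.7 and 13.2 in the Cdc42+/- mice and 29.8 and 33.3 in the Cdc42-/- mice (1.04 against WT, SE 0.15, limma adjusted p 0.0107). Its partner Batf had 50.5 and 57.0, 60.5 and 47.8, and 83.2 and 93.3 RPKM in the same order of genotypes (0.71, SE 0.15, limma adjusted p 0.0342), and 7 alternatives ended its call. Of the others, Max ranged from 47.6 to 59.7 RPKM over the libraries, Hif1a from 38.3 to 60.2, Nfe2l2 from 10.4 to 21.6, Tfe3 from 8.36 to 10.5 and Mycn from 0 to 0.360. Without replicate 2 of Cdc42-/-, 3 genes of metabolism rose and 1 fell, 2 carriers rose and 3 factors rose against WT, where 9.89% of all genes rose and 8.61% fell.

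For each transporter, the genes with the most similar pattern over the 6 libraries were found as the smallest root mean square difference of centred log2(RPKM + 1). The search covered 8040 protein-coding genes whose mean was 5 RPKM or more, without the 8 transporters and without predicted genes. For Slc7a5 they were H2-DMa at 0.0851 and Fkbp2 at 0.0874, and only 3 genes lay within 0.1. H2-DMa, a chain of the H2-DM protein that helps load peptides onto MHC class II, had 18.6 and 19.8 RPKM in the WT mice, 16.3 and 15.1 in the Cdc42+/- mice and 30.2 and 42.1 in the Cdc42-/- mice. It was highest in the Cdc42-/- library that also held the most RNA of myeloid markers, whose part in this pattern was not tested. The nearest genes were Sirt1 and Ptbp1 for Slc3a2, Tigar and Rmi2 for Slc7a1, and Mphosph9 and Smarcc1 for Slc38a2. They were Rab3gap1 and Mgea5 for Slc1a5, Dpp4 and Xpc for Slc38a9, Ap1g2 and Ncln for Slc7a6, and Tm9sf3 and Gpi1 for Slc38a1. The number of genes within 0.1 was 152 for Slc7a1, 263 for Slc38a2, 288 for Slc7a6, 359 for Slc3a2, 450 for Slc1a5, 509 for Slc38a9 and 859 for Slc38a1, so Slc7a5 had the fewest of the 8. The measure is not scaled to how much a gene varies, so genes that vary more tend to have fewer genes within 0.1. These counts therefore do not show that a pattern is unusual.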

How the data were processed

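RNA-seq of 6 libraries, 2 per genotype, was analysed from 2 deposited tables of 14608 genes that share the WT columns. Per the submitters' processing notes, TopHat and mm10 were used; the counter, annotation, strand setting and filter are not given in the sources used here. The library columns are RPKM made by the authors, as worked out from the deposited values. The group means in the deposited tables are a signal, reads divided by the authors' size factors and averaged. Further columns, per the file headers, are the authors' fold change (a ratio), the same on the log2 scale, and their p-value before and after adjustment. Reads and gene lengths were recovered from both (100% whole within 0.02 reads).

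Main tests used limma 3.58.1 in R 4.3.3 (lmFit, eBayes with trend) on log2(RPKM + 1) of the 12233 genes whose mean reached 0.5 RPKM, all 6 libraries in 1 fit, with Benjamini-Hochberg adjustment over all genes tested. Such differences understate the change of low genes. The recovery and the fit were tested on simulated data. The 3 comparisons were each recomputed under 13 alternatives: a pseudocount of 0.1, no filter, only the genotypes compared, upper-quartile scaling, voom on the recovered reads, array weights, a replicate block and leaving out each library. Genotypes came from the sample titles. With 2 libraries per genotype, p-values rest on few samples.

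The 8 transporters and all lists were chosen with earlier results of these data known. The 8 were named whatever their values. Every other transporter past the threshold was named, and at most 4 genes per comparison, by p, of each other list. The light chains of Slc3a2 and the listed transcription factors were given by level, and 2 pattern-like genes per transporter were named.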

Additional observations from a re-analysis of the deposited data

How the results depend on the processing

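In Cdc42+/- against WT, 0 of the 8 transporters passed under each of the 13 alternatives. In Cdc42-/- against WT the count of 0 became 1 with a pseudocount of 0.1 (Slc7a5), 1 with upper-quartile scaling (Slc1a5) and 2 with voom on the recovered reads, and it ran from 0 to 4 when each library was left out in turn, with 4 without replicate 1 of Cdc42-/- and 2 without replicate 2. In Cdc42-/- against Cdc42+/- the count of 1 became 0 with only the 2 genotypes compared, 2 with upper-quartile scaling (Slc1a5 and Slc7a5) and 0 with array weights, and it ran from 0 to 4 when each library was left out, with 0 without any 1 of the WT or Cdc42+/- libraries. With the replicate number as a block the counts were 0, 0 and 0. The labels do not say that equal numbers mark mice handled together, and correlations of replicate differences were 0.02, 0.20 and -0.03, so the numbers were not taken to pair the libraries. The cause of these changes was not tested.

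Signs turned only for Slc7a6, Slc38a1 and Slc38a9, none of them past the threshold. With each library left out in turn, the Cdc42+/- against WT difference ran from -0.0981 to 0.185 for Slc7a6, from -0.0208 to 0.0884 for Slc38a1 and from -0.0954 to 0.0796 for Slc38a9. In Cdc42-/- against WT it ran from -0.144 to 0.147 for Slc7a6. In Cdc42-/- against Cdc42+/- it ran from -0.188 to 0.104 for Slc7a6 and from -0.0159 to 0.0934 for Slc38a1. Upper-quartile scaling gave -0.0775 for Slc7a6 and -0.00855 for Slc38a1 in Cdc42-/- against WT, and -0.0120 for Slc38a1 against Cdc42+/-; it moved the median of all genes from 0.01 to -0.06 in Cdc42-/- against WT.

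Over all genes, 0 passed in Cdc42+/- against WT, and 60 did with only those genotypes, 88 with array weights, 1 with voom, and up to 76 with a library left out. The 1398 genes of Cdc42-/- against WT became 536 with only those genotypes, 885 with array weights and 259 to 4433 with a library left out. The 1006 genes of Cdc42-/- against Cdc42+/- became 276 with only those genotypes and 0 to 4263 with a library left out. Of the 20 further genes named in Cdc42-/- against WT, most lost their call when a WT or a Cdc42+/- library was left out. The same held for the 16 named against Cdc42+/-. With a Cdc42-/- library left out, the spread comes from the other genotypes alone. Over all genes tested the median SD on the log2 scale was 0.115 in WT and 0.0835 in Cdc42+/-, but 0.216 in Cdc42-/-. Calls kept in those fits are therefore no check of the calls. The block kept 16 of 20 and 12 of 16, array weights 9 and 11, and fits of only the 2 genotypes 6 and 2. In the authors' deposited table, some of the 20 were over an adjusted p of 0.05 in Cdc42-/- against WT. These ran from 0.0701 for Rragd to 0.383 for Bckdhb, with Batf, Aars, Slc43a1, Hars, Slc38a6, Shmt1 and Slc25a38 between them. The others of the 20 were under 0.05 there.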

Other observations

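Slc16a10 passed no test and was singled out after its values were seen. This carrier of aromatic amino acids had 0.529 and 0.9497 RPKM in the WT mice, 0.772 and 0.737 in the Cdc42+/- mice and 1.29 and 4.95 in the Cdc42-/- mice. Its highest value was in the Cdc42-/- library with the most RNA of myeloid markers, whose part in it was not tested. The log2 difference between Cdc42-/- and WT was 1.10, with a limma adjusted p of 0.179. The lysosome and autophagy regulator Tfeb had 6.70 and 5.002 RPKM in the WT mice, 6.82 and 6.87 in the Cdc42+/- mice and 9.99 and 9.88 in the Cdc42-/- mice, with a log2 difference against WT of 0.69 (SE 0.17, limma adjusted p 0.0547). Foxo1, which restrains growth in resting T cells, had 76.0 and 73.2 RPKM in the WT mice, 74.7 and 87.2 in the Cdc42+/- mice and 56.9 and 36.7 in the Cdc42-/- mice, with a difference of -0.70 (SE 0.21, limma adjusted p 0.0856). Neither regulator passed the test, although the libraries of Cdc42-/- and WT did not overlap for either, as for 56.0% of all genes tested.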
